A study of Arabidopsis thaliana with 6 samples.

Results

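Seedlings of Arabidopsis thaliana, wild type of the Col ecotype, were compared after a short light signal at night and without it. Plants grew for 9 days in cycles of 12 h light and 12 h darkness, and the light group then received white light for 2 h from ZT18 (ZT counts hours from dawn), while the control group was left in the dark; both were collected at ZT20, with 3 RNA-seq libraries each. The regions described here are the exon parts, or bins, to which the authors gave the event "multiple". A bin is the stretch between neighbouring exon borders of the annotated transcripts of a gene, and the authors gave each alternatively spliced bin 1 event. Of 7973 such bins, 1076 carried the event "multiple", and they lay in 444 genes. The others were 2298 alternative 3' splice site bins, 1456 alternative 5' splice site bins, 913 skipped exons (ES) and 2230 retained introns (IR). All members were taken by this event name, without regard to any measured value. The sources used here do not define the name.

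In alternative splicing, an intron or exon border can be used or passed over, so that 1 gene gives several transcripts. In plants the retention of introns and shifts of splice sites are common, many of the resulting transcripts carry early stop codons, and some are kept in the nucleus or degraded. Serine- and arginine-rich (SR) proteins and the U2AF factors help to select splice sites, and light is known to change splicing in leaves and roots of Arabidopsis. Where several transcripts cut the same stretch of a gene in different ways, a bin belongs to more than 1 such choice.

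Every bin with multiple events adjoined another one. They came in stretches: 360 pairs, 80 runs of 3, 14 runs of 4, 9 runs of 5, 1 run of 7 and 1 run of 8. No gene had a single one, since 331 genes held 2, 71 held 3 and 42 held 4 or more, up to 9 in a gene. Of their 2152 borders, 56.8% were shared with another such bin, 17.1% with a constitutive exon, 13.9% with an exon bin at a gene end and 12.2% with an intron. None touched a bin of another splicing event. The middle of the median bin lay at 46.7% of the gene's length, counted from the lower coordinate.

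Widths ran from 2 to 622 bases, with a median of 47 bases. They stood between the alternative 3' splice site bins (median 10 bases) and alternative 5' splice site bins (19) on the narrow side and the skipped exons (67) and retained introns (96) on the wide side. By width, 344 were of 1 to 20 bases, 507 of 21 to 100, 191 of over 100 to 300 and 34 were wider. A width that is a multiple of 3 keeps the reading frame of coding sequence where the bin alone is included or left out. Of these bins 40.1% had one, as did 40.1% of retained introns, 42.7% of alternative 5' splice site bins, 52.4% of skipped exons and 56.9% of alternative 3' splice site bins. Adjoining bins can be left out together, and untranslated bins were not set apart, so these shares do not give the effect on the frame. Junctions were counted here only if the authors listed them with counts and tied them to 1 gene. Of these, an annotated one entered 55 bins at both borders, 434 at 1 border and 587 at neither. Such a junction passed over 799 bins whole. A bin entered at neither border can still have an annotated junction that was not listed or hit several genes.

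The use of a bin is given as its count in percent of the count of its gene in the same library. In the 938 bins whose gene had a mean of at least 100 counts in the dark, the median usage was 3.25% in the dark and 3.17% in light. The spread between libraries was small beside this level, with a median SD of 0.582 percentage points in the dark and 0.679 in light. In the dark, 164 bins held over 10% of their gene's counts, 511 held 1 to 10% and 263 held less than 1%. Median usage in the dark was 3.14%, 3.20%, 3.21% and 4.81% in the 4 width classes from narrow to wide, although the widths differ many times over. A read over a bin of a few bases also covers its neighbours, and how such reads were assigned is not stated in the sources used here. The median coverage per base relative to the whole gene went from 7.91 in the narrowest class through 1.15 and 0.417 to 0.205 in the widest, and levels of bins of unequal width are not comparable.

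The libraries held 8695843 to 12689543 gene counts each, and bins with multiple events took 20.6% to 21.7% of all counts in alternatively spliced bins. The share of ribosomal RNA loci was 0.799% to 1.75% in 4 libraries and higher in dark library C (4.77%) and light library A (4.40%). The RNA came from a pool of tissues, and all 11 leaf and root markers examined were detected, the root hair gene EXPA7 at 1.59 to 3.15 CPM (counts scaled to library size) in the dark and 2.64 to 3.74 CPM in light. The root hair gene COBL9 stood at 1.42 to 2.92 CPM in the dark and 3.56 to 4.73 CPM in light. The other root markers went both ways. SCR stood at 45.4 to 47.3 CPM in the dark and 51.9 to 56.9 CPM in light. SHR stood at 21.1 to 23.5 CPM in the dark and 15.5 to 18.5 CPM in light, and PHO1 at 151 to 163 and 98.7 to 113 CPM. In such RNA, a change of splicing within cells and a change in the share of cells or of RNA per cell cannot be told apart. The library letters are those of the column headers, which do not give the replicate numbers of the labels. Whether the 3 libraries of each group are separate cultures is not stated in the labels. All p-values here therefore rest on the spread among these libraries, part or all of which may be technical.

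After the light pulse, 16 bins with multiple events, in 13 genes, changed their usage, 7 upwards and 9 downwards. Bins in the splicing factor gene RS41, in the beta-glucosidase gene BGLU11 and in the tryptophan pathway gene PAI1 were used less, and bins in GOX1 (glycolate oxidase), FUS5 (a COP9 signalosome subunit) and the dormancy-associated gene DYL1 were used more. Rubisco activase (RCA) held an adjoining pair that moved in opposite directions. Calls were made by edgeR's quasi-likelihood test at a Benjamini-Hochberg adjusted p under 0.05 over all 3348 alternatively spliced bins tested. Of the members, 553 passed the filter on low counts, in 295 genes, and 523 did not. The called share was 2.89%, beside 1.19% of all bins tested (0.538% higher and 0.657% lower). It was 0.705% of alternative 3' splice site bins, 1.04% of alternative 5' splice site bins, 0.613% of skipped exons and 1.06% of retained introns. Neighbouring bins can share reads, so these counts are not counts of independent events. The light and dark libraries did not overlap in 96 members (17.4%), beside 14.8% of all bins tested. An unadjusted p under 0.05 was found in 70 members (12.7%), and the share over all bins was not computed. The count of calls depended on single libraries: it was 7 without dark library C, 9 without light library B and 10 without either dark library B or light library A, and DESeq2 called 4. The bins called higher numbered 3 or 4 without any 1 of the 6 libraries, and those called lower 4 to 10, with 4 without dark library C. With the column letter as a block, 4 were higher and 10 lower. The bins of PAI1 and AT2G20830 and the narrow bin of RCA were called in every alternative.

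**Figure D1:**
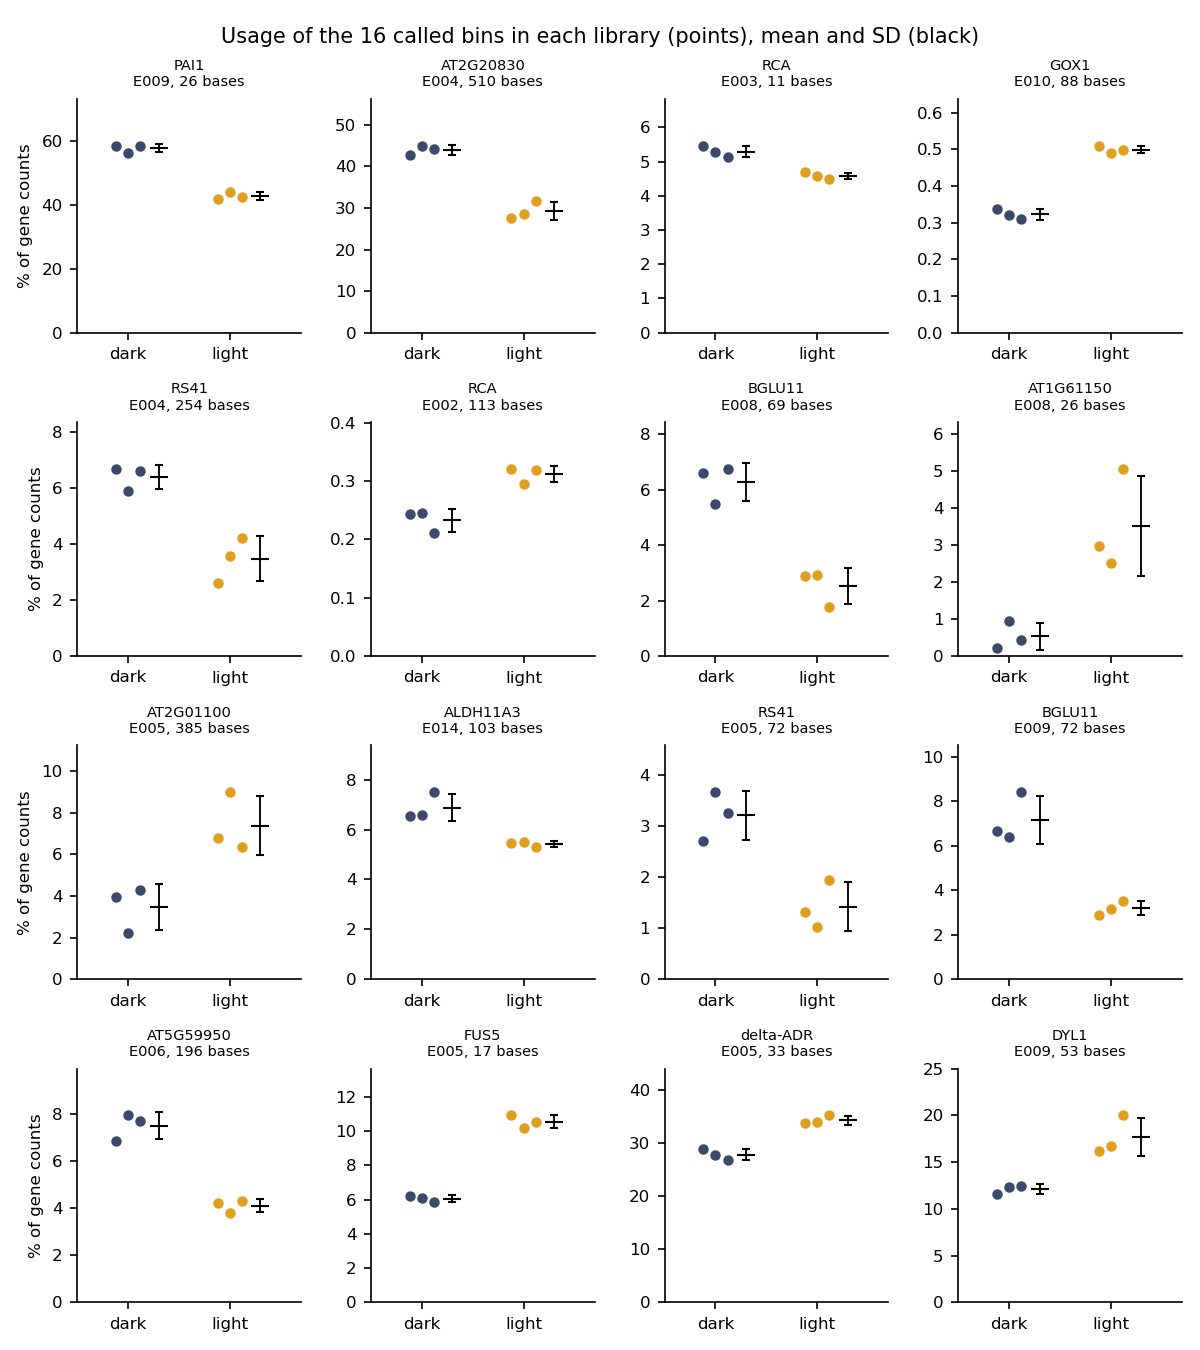
Usage of the 16 called bins in percent of the counts of their gene, in each of the 3 dark (blue) and 3 light (orange) libraries, with the group mean and SD in black; each panel has its own axis, which starts at 0. In no panel do the dark and light libraries overlap, and the levels range from 0.210% in the 113-base bin of RCA to 58.4% in PAI1.

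By width, 2 of 182 tested bins of 1 to 20 bases were called, 8 of 258 of 21 to 100 bases, 4 of 93 of over 100 to 300 bases and 2 of 20 wider ones. In bins of all events the called share was 0.565%, 1.15%, 1.64% and 5.38% in the same order, so it also stood higher in wider bins there. Among the members, leaving out dark library C took the calls of the class of over 100 to 300 bases from 4 to 0 and those of 21 to 100 bases from 8 to 3, so that the counts were 2, 3, 0 and 2 from narrow to wide. In the class of 21 to 100 bases 4 were left without light library B and 5 without dark library B, light library A or light library C, and in the next class 2 without light library A. The narrowest class had 1 without dark library B or any single light library, and the widest 1 without dark or light library B. The medians of the log2 usage change were 0.01, -0.03, -0.02 and -0.15 from narrow to wide, and -0.02 over all members, beside -0.00 over all bins tested. The value of the widest class rested on 20 bins and was -0.01 in those with a mean of at least 20 counts. The median absolute log2 change was 0.14, 0.15, 0.15 and 0.22 in the 4 classes, largest in the 20 widest bins, against a median standard error of 0.23, 0.21, 0.22 and 0.21.

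**Figure D2:**
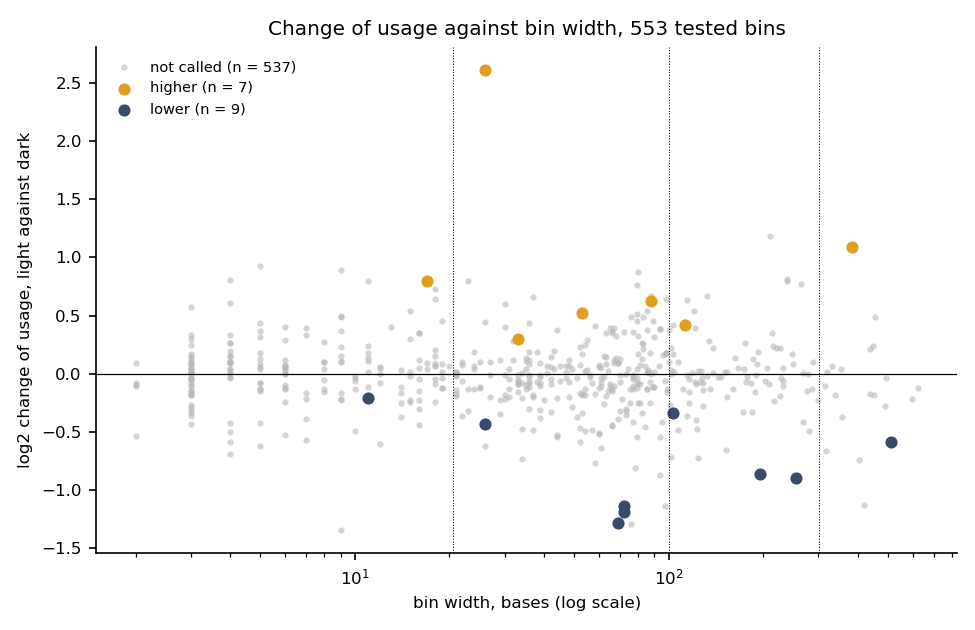
The log2 change of usage in light against dark for the 553 tested bins, by bin width on a log axis, with the width classes parted by dotted lines; orange and blue points are the 7 bins called higher and the 9 called lower. Bins that were not called surround 0 at every width, and called bins occur from 11 to 510 bases.

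By number, 10 of 315 tested bins were called in genes with 2 of these bins, 2 of 108 in genes with 3 and 4 of 130 in genes with 4 or more. The median log2 change was -0.00, -0.07 and -0.03 in the same order. The median standard error of a single bin was 0.23, 0.24 and 0.19, which does not measure the spread of a median over bins. Without single libraries the medians ranged from -0.0157 to 0.0174, from -0.0840 to -0.0163 and from -0.0542 to 0.0123. The counts of calls were small and moved with single libraries. In genes with 4 or more the count was 2 without any 1 of the 6 libraries. In genes with 2 it was 4 without dark library C and 6 without dark or light library B, and in genes with 3 it was 1 without dark library C, light library A or light library B and 3 without dark library A. By the listed annotated junctions, calls were 8 of 224 in bins entered at neither border. They were 6 of 283 in bins entered at 1 border and 2 of 46 at both. Among bins with a width that is a multiple of 3, 5 of 240 were called, against 11 of 313 of the others. The splits by border junctions and by multiples of 3 were not made over bins of all events.

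**Figure D3:**
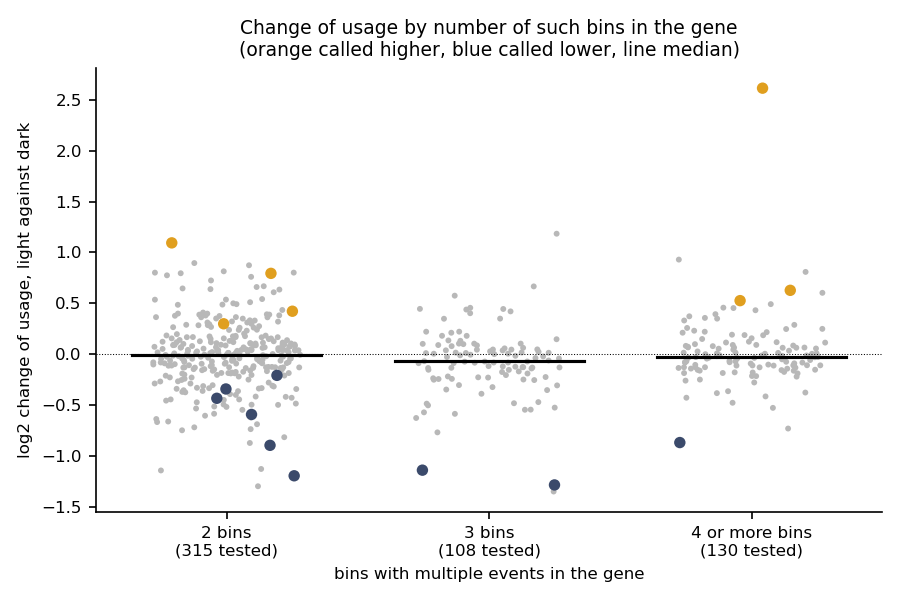
The log2 change of usage in light against dark by the number of bins with multiple events in the gene; points are bins, large orange and blue points are called higher and lower, and black lines are medians. The medians of -0.00, -0.07 and -0.03 lie close to 0 in all 3 classes.

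Splicing factor genes were represented by RS41 (AT5G52040), which encodes an SR protein of a plant-specific group. Its 2 adjoining bins were flanked by intron on either side, and both fell. The bin of 254 bases (chromosome 5, 21131562 to 21131815) took 6.68%, 5.89% and 6.62% of the gene's counts in dark libraries A, B and C and 2.62%, 3.57% and 4.22% in the light ones. All light libraries were below all dark ones, and the log2 change was -0.90 ± 0.17 (SE, adjusted p = 0.00807). The neighbour of 72 bases (21131816 to 21131887) went from 2.70%, 3.67% and 3.26% to 1.31%, 1.02% and 1.95%, a log2 change of -1.19 ± 0.25 (adjusted p = 0.0112). Junction reads moved the same way for the wider bin. Of the reads that entered or spanned it, 23.0%, 21.6% and 19.2% entered in the dark and 1.41%, 13.3% and 8.62% in light, without overlap. For the narrower bin, 4.94%, 12.1% and 9.23% entered in the dark and 2.78%, 2.15% and 11.7% in light, and the groups overlapped. The gene itself rose by 0.22 ± 0.06, but by 0.08 (adjusted p = 0.354) when scaled by library totals alone. The call of the wider bin did not hold without dark library C (0.0515) or without light library A (0.0623), and that of the narrower one without dark library B (0.0823), dark library C (0.0681) or light library B (0.113).

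RCA (AT2G39730) encodes Rubisco activase, which frees the active sites of Rubisco, and its long and short protein forms are known to come from alternative splicing near the end of the gene. Its bin of 11 bases (chromosome 2, 16571180 to 16571190) had 3371, 2930 and 3323 counts in the dark and 5275, 5536 and 3966 in light, or 5.47%, 5.28% and 5.13% of the gene against 4.68%, 4.57% and 4.49%. Its counts rose in light while its share fell, since the gene rose by 1.11 ± 0.05, and the usage change was -0.21 ± 0.03 (adjusted p = 0.00143). Of the junction reads that entered or spanned the bin, 55.4%, 55.4% and 55.7% entered it in the dark and 46.4%, 47.3% and 46.3% in light.

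The bins of RCA could be followed through single junctions. The junction that ends at the first base of the 11-base bin fell relative to the gene by 0.23 on the log2 scale (± 0.03, adjusted p = 3.24e-05), and the one that leaves the bin out rose by 0.28 ± 0.03 (adjusted p = 1.3e-06). In the dark the entering junction had more reads (2892, 2515 and 2857 against 2327, 2021 and 2271), and in light the skipping one did (5027, 5254 and 3905 against 4447, 4710 and 3361). The adjoining bin of 113 bases (16571067 to 16571179), which no junction enters, rose from 0.243%, 0.245% and 0.210% to 0.321%, 0.295% and 0.319% (0.42 ± 0.08, adjusted p = 0.00842), a call lost without dark library C (0.106). An unannotated junction with 112 reads, which also leaves out the 11-base bin, was seen in light library A and had 0 reads in the other 5 libraries.

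GOX1 (AT3G14420) encodes glycolate oxidase, a peroxisomal enzyme of photorespiration. Its bin of 88 bases (chromosome 3, 4821945 to 4822032) took 0.338%, 0.320% and 0.310% of counts in the dark and 0.510%, 0.491% and 0.497% in light. The groups were far apart beside their spread, with a change of 0.63 ± 0.10 (adjusted p = 0.00143), while the gene rose by 0.41 ± 0.06. The call was lost without both dark library C and light library A, the richest in rRNA (0.0565). An unannotated junction from base 4818803, which lies outside GOX1 below its lower end, to base 4822033 left out the bin. It had 82, 63 and 81 reads in the dark and 68, 59 and 54 in light. Whether reads of another locus are counted in this gene was not tested. No junction read entered the 88-base bin in any library, and it is among those entered by an annotated junction at neither border. The neighbouring 4-base bin had 33, 20 and 116 counts in the dark and 129, 145 and 52 in light: its groups overlapped, and it was not called (0.81 ± 0.34, adjusted p = 0.428) but would be without dark library C (1.89, adjusted p = 0.00164). The 2 further bins of GOX1, of 34 and 61 bases, stood at 0.01 and -0.11 and were not called. ALDH11A3 (AT2G24270), a non-phosphorylating glyceraldehyde-3-phosphate dehydrogenase, had a bin of 103 bases (chromosome 2, 10329619 to 10329721) that went from 6.56%, 6.59% and 7.50% to 5.47%, 5.49% and 5.30%. The groups did not overlap, and the change was -0.34 ± 0.07 (adjusted p = 0.0111), a call lost without dark library C (0.121). The gene rose by 0.78 ± 0.06. No junction read entered the bin, which is also among those entered by an annotated junction at neither border.

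FUS5 (AT1G02090) encodes a subunit of the COP9 signalosome, which represses photomorphogenic development in darkness. Its bin of 17 bases (chromosome 1, 387656 to 387672) took 6.23%, 6.09% and 5.85% of FUS5 counts in the dark and 10.9%, 10.2% and 10.6% in light. The values within each group were close and the groups far apart, a change of 0.79 ± 0.18 (adjusted p = 0.0269), with the gene up by 0.47 ± 0.07. The bin rested on 23 to 53 counts per library, and the call was lost without any 1 of the 6 libraries (adjusted p = 0.0624 to 0.127) and with the column letter as a block (0.0651). Junction reads entered it in 55.9%, 63.3% and 70.4% of cases in the dark and 78.0%, 86.3% and 86.1% in light, again without overlap. Its wide neighbour of 595 bases was not called (-0.22 ± 0.28, adjusted p = 0.918).

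**Figure D4:**
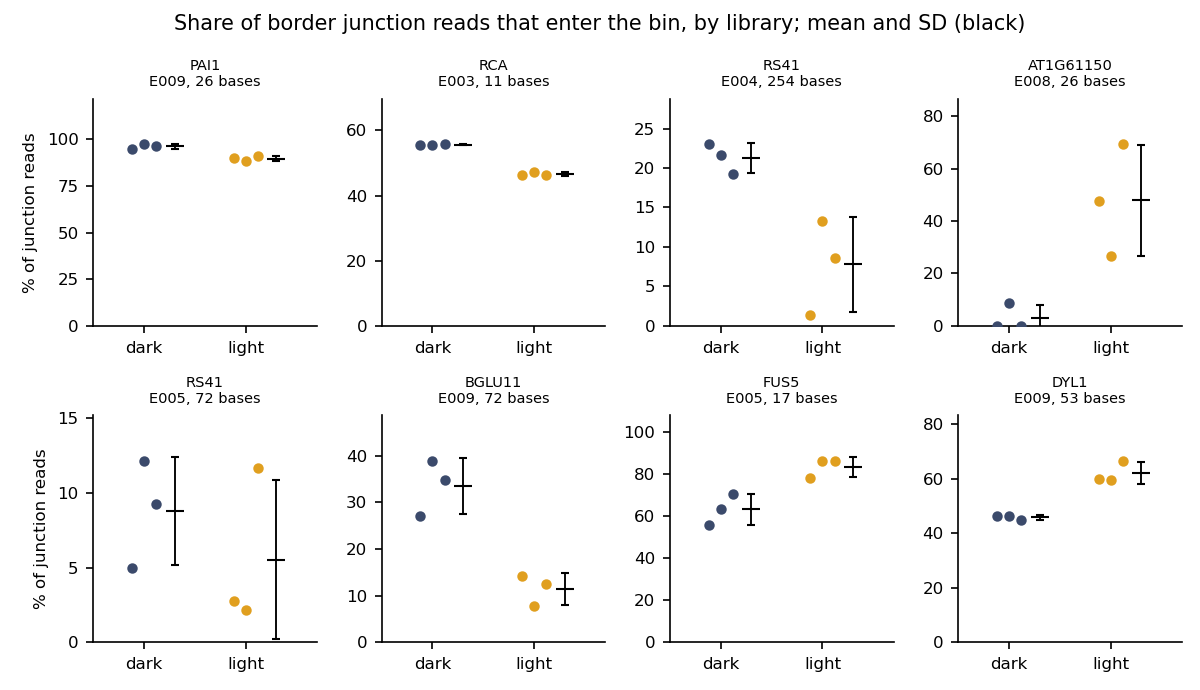
Percent of the junction reads entering or spanning a bin that enter it, in the 3 dark (blue) and 3 light (orange) libraries. Mean and SD are in black. Shown are the 8 called bins with at least 10 such reads in each group that were not at 0% or 100% throughout. In 7 panels the groups do not overlap, and in the 72-base bin of RS41 they do.

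PAI1 (AT1G07780) encodes phosphoribosylanthranilate isomerase of tryptophan synthesis and has near-identical copies in the genome, so its counts are uncertain. Its bin of 26 bases (chromosome 1, 2412194 to 2412219) was among the most used in the dark, with 58.4%, 56.2% and 58.2% of the gene's counts, and held 41.6%, 43.9% and 42.5% in light. The change was -0.43 ± 0.06 (adjusted p = 0.000124), and over the alternative fits it ranged from -0.87 to -0.41. The shares of the 4 constitutive exons of the gene stood 0.30 to 0.46 higher in light on the log2 scale, which was not tested. The bin is a large part of the gene count, so a fall of its share by itself raises the shares of the rest. The junction from its last base to base 2412610 had 325, 246 and 399 reads in the dark and 220, 280 and 189 in light and fell relative to the gene (-0.50 ± 0.08, adjusted p = 0.000256). Junction inclusion went from 94.8%, 97.3% and 96.5% to 89.7%, 88.3% and 90.8%. The rise of the gene by 0.29 ± 0.10 was not called with library totals alone (0.15, adjusted p = 0.157) or without dark library A (0.0521) or dark library B (0.0656).

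BGLU11 (AT1G02850), a member of the beta-glucosidase family, held a stretch of 3 bins that all stood lower in light. The bin of 69 bases (chromosome 1, 631859 to 631927) went from 6.60%, 5.47% and 6.75% to 2.90%, 2.91% and 1.75% (-1.28 ± 0.26, adjusted p = 0.0107). The next, of 72 bases (631928 to 631999), went from 6.68%, 6.39% and 8.41% to 2.90%, 3.17% and 3.51% (-1.14 ± 0.24, adjusted p = 0.0134). The groups were apart in both, but the gene fell by 1.42 on the log2 scale (± 0.14), and the light libraries held only 5 to 12 counts in these bins. All 3 bins of the stretch passed the filter on low counts only with their dark libraries. Their direction thus partly follows from that filter. The call of the 69-base bin was lost without light library C (0.0775) and that of the 72-base bin without dark library C (0.0515), light library A (0.0675) or light library B (0.113). Reads of the junction that leaves out the whole stretch went from 2.20%, 2.01% and 1.78% of the gene's counts to 4.35%, 6.35% and 4.91% (1.39 ± 0.27, adjusted p = 0.00904, but 0.373 without light library B). The share of reads entering the 72-base bin went from 27.0%, 38.9% and 34.8% to 14.3%, 7.69% and 12.5%.

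In AT2G20830, the bin of 510 bases (chromosome 2, 8970091 to 8970600) is the widest of those called. It held 42.7%, 45.0% and 44.1% of counts in the dark and 27.7%, 28.5% and 31.8% in light. The groups stood well apart (-0.59 ± 0.09, adjusted p = 0.000933), and the gene rose by 0.45 ± 0.08. Over the alternative fits the change ranged from -0.93 to -0.55. Its neighbour of 279 bases stood at -0.50 ± 0.16 and was not called (adjusted p = 0.217). The share of the single constitutive exon stood 0.49 higher on the log2 scale (not tested). A fall of so large a part of the gene count by itself raises the shares of the rest. Only 3 dark and 7 light junction reads bore on the wide bin. DYL1 (AT1G28330), also called DRM1, is a dormancy-associated gene. It fell by 3.17 on the log2 scale (± 0.10), and its bin of 53 bases (chromosome 1, 9934451 to 9934503) went from 11.5%, 12.3% and 12.5% of counts to 16.2%, 16.8% and 20.0%. The groups did not overlap (0.53 ± 0.12, adjusted p = 0.0330), and the call was lost without any 1 of the 6 libraries (0.0673 to 0.246) and with the block (0.0612). The junction into this bin rose relative to the gene (0.68 ± 0.14, adjusted p = 0.0293, also lost without any 1 library, at 0.0621 to 0.568). Of the junction reads entering or spanning the bin, 46.4%, 46.6% and 44.9% entered it in the dark against 60.0%, 59.7% and 66.7% in light.

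In AT1G61150, which was not called in level (0.04 ± 0.06, adjusted p = 0.635), a bin of 26 bases (chromosome 1, 22542837 to 22542862) showed the largest change among all tested members. It had 1, 4 and 2 counts in the dark and 12, 11 and 15 in light, or 0.221%, 0.939% and 0.432% of the gene against 2.98%, 2.52% and 5.07%. The bin passed the filter on low counts only through its light libraries, so its rank and direction partly follow from that filter. All light libraries were above all dark ones (2.61 ± 0.53, adjusted p = 0.0107), on few counts, and the call was lost without dark library A (0.0550), dark library C (0.106) or light library C (0.0787). Of the junction reads entering or spanning the bin, 0%, 8.57% and 0% entered it in the dark and 47.6%, 26.7% and 69.2% in light. The junction from its last base had 0 reads in each dark library and 11, 6 and 10 in light. The adjoining bin of 95 bases stood at -0.41 ± 0.18 (adjusted p = 0.480). Such reads entered it in 100%, 62.5% and 67.6% of cases in the dark and 43.8%, 53.6% and 41.2% in light.

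AT2G01100 held a bin of 385 bases (chromosome 2, 81801 to 82185) that rose from 3.96%, 2.22% and 4.29% to 6.79%, 9.00% and 6.34%. The groups did not overlap (1.09 ± 0.22, adjusted p = 0.0109), the gene fell by 0.55 (± 0.07), and the call was lost without dark library B (0.0681) or light library B (0.123). The bin was left out by all 164 dark and 60 light junction reads that bore on it. No listed annotated junction enters it at either border, and reads that run through it without a junction are not counted here. In AT5G59950, a bin of 196 bases (chromosome 5, 24140406 to 24140601) fell from 6.85%, 7.94% and 7.70% to 4.23%, 3.80% and 4.33% (-0.87 ± 0.19, adjusted p = 0.0185), with no call for the gene (0.09 ± 0.06). The groups were apart, but the call was lost without dark library B (0.0889), dark library C (0.0907), light library A (0.0538) or light library B (0.116). The gene delta-ADR (AT1G48760), for the delta subunit of an adaptor complex of vesicle transport, held a bin of 33 bases (chromosome 1, 18036122 to 18036154) that rose from 28.8%, 27.8% and 26.8% to 33.8%, 33.9% and 35.2% (0.30 ± 0.07, adjusted p = 0.0320). It lies within the overlapping locus AT1G48750, so the reads of the 2 loci may be mixed. The call was lost without any single library but dark A (0.0738 to 0.164) and with the block (0.0712).

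**Figure D5:**
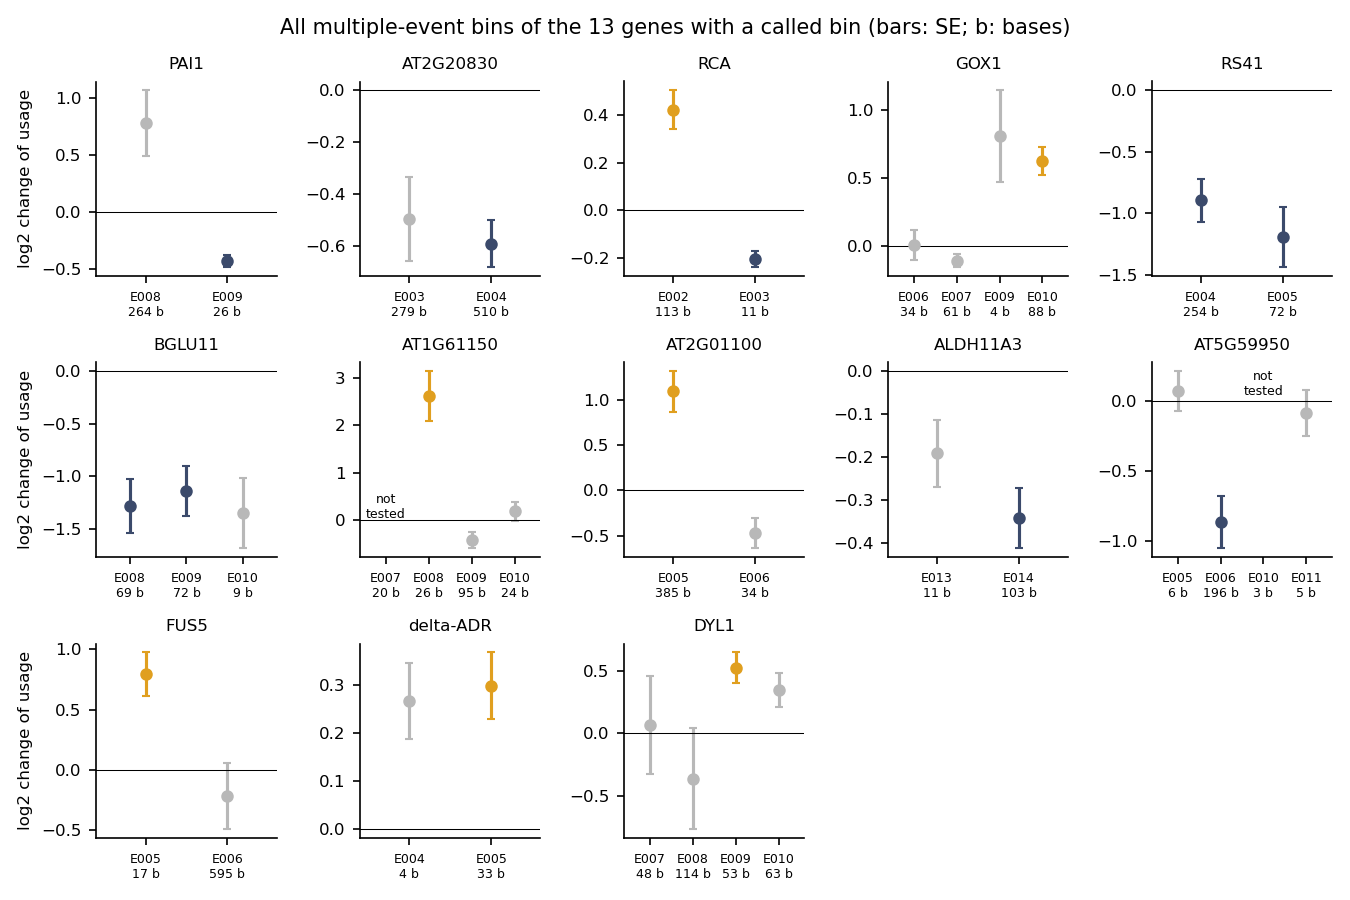
The log2 change of usage in light against dark, with its SE, for all bins with multiple events in the 13 genes with a called bin, from the lower to the higher coordinate; orange is called higher, blue called lower and grey not called, and each panel has its own axis. In RS41 and BGLU11 all tested bins stand below 0, and in RCA the adjoining bins lie on opposite sides of 0.

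Neighbours within a stretch can share reads and are not independent. Of 180 stretches with at least 2 tested bins, all tested bins had the same sign in 110. Of the 13 stretches with a called bin, 3 held 2 called bins: those of RS41, BGLU11 and RCA, the last in opposite directions. The 444 genes also held 336 bins of other events, of which 151 were tested and 1 was called.

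The genes that carry these bins often changed in level too. Of 423 tested, 117 were higher and 146 lower in light by edgeR, or 62.2%, beside 56.3% of all genes (28.9% higher and 27.4% lower). With scaling by library totals alone, which shifts the median of all tested genes by -0.14, 88 were higher and 197 lower. The shares were alike by number of bins: 62.0% in genes with 2, 63.2% with 3 and 61.9% with 4 or more. Among the 13 genes with a called bin, 7 were higher (PAI1, AT2G20830, RCA, GOX1, RS41, ALDH11A3 and FUS5), 3 lower (BGLU11, AT2G01100 and DYL1) and 3 not called (AT1G61150, AT5G59950 and delta-ADR). Bins fell in genes that rose and rose in genes that fell, as in AT2G20830 and DYL1, and moved with the gene in BGLU11 and FUS5.

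At the borders of bins with multiple events, 1013 junctions were seen, 803 of them annotated. Of 309 tested, 6 were called by edgeR, 3 higher and 3 lower (1.94%, beside 0.169% of all junctions, 0.0729% higher and 0.0957% lower). All junctions also include those away from alternatively spliced bins. The share at the borders of bins of other events was not computed. The 6 called junctions touched 10 bins, 5 of which were called themselves. Apart from those of RCA, PAI1, BGLU11 and DYL1 given above, the remaining call was an unannotated junction in GRP-3 (AT2G05520), which encodes a glycine-rich protein. From base 2026610 to base 2026734 of chromosome 2 it had 38, 34 and 37 reads in the dark and 0 in each light library. This junction passed the filter on low counts only through its dark libraries, so its direction partly follows from that filter. Other junctions from the same base were also listed at 0 in some libraries and not in others of the same group, with 24, 25 and 0 reads in the dark and 0 in light for one and 0, 27 and 33 in the dark and 0, 34 and 0 in light for another. The 5 bins of this gene stood between -0.02 and 0.06 in log2 usage, with no call.

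Junction inclusion is the share of entering reads among the junction reads that enter a bin or span it whole. Reads that enter at either border were added up, while a spanning read counts once. Inclusion could be computed for 671 members with at least 10 such reads in each group. Reads that run across a border without a junction are not counted in it. A bin that no junction enters thus stands at 0% whatever its usage. It was at 0% or 100% in all libraries of both groups in 353, and of the remaining 318 the light and dark libraries were apart in 42, 20 higher and 22 lower (13.2%, beside 10.7% of such bins of all events). The median difference over the members was -0.20 points. With 3 libraries against 3, an exact two-sided permutation test cannot give a p under 0.1, so the values stand without a call. Of the 16 called bins 14 had enough reads, and in the 8 whose inclusion was not fixed it moved in the direction of the usage. Reads that enter a bin also lie on its bases, and these 8 were chosen by their usage. The match is therefore not separate evidence. Over all tested members whose inclusion was not fixed, the sign was the same in 146 of 227.

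Some bins without a usage call had junction values that lay apart on many reads. The following 5 genes were picked after their values were seen. They had the largest differences among 16 such bins with at least 100 entering or spanning reads in each group. The share of all bins that lie apart at that depth was not computed. With at least 10 reads it was 10.7% of bins of all events, beside 13.2% of the members. ATU2AF65A (AT4G36690) encodes the large subunit of U2AF, which binds the polypyrimidine tract before a 3' splice site. Its bin of 173 bases (chromosome 4, 17294431 to 17294603) was entered by 75.7%, 66.2% and 63.6% of reads in the dark and 42.1%, 39.6% and 50.0% in light, with a usage change of -0.33 (adjusted p = 0.202). In NAC082, a NAC transcription factor gene, a bin of 19 bases went from 81.1%, 71.4% and 76.2% to 94.9%, 94.4% and 100%, with a usage change of 0.46 (adjusted p = 0.353). A bin of 18 bases in AT2G43160 went from 45.1%, 45.5% and 41.7% to 56.2%, 64.1% and 71.9%. In AT2G16940, a bin of 39 bases went from 52.6%, 53.1% and 51.7% to 39.6%, 29.6% and 29.4%, and its bins of 18 and 31 bases differed by -16.7 and -15.3 points. In AT4G35785, a bin of 37 bases went from 76.9%, 56.4% and 58.5% to 46.8%, 52.8% and 47.2%. In all of these the light and dark libraries did not overlap, and none had a usage call.

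Members of 5 gene lists for splicing, light and the clock were few. Of 20 SR genes only RS41 carried such bins, and both fell. Among the other splicing regulators whose symbol matched, 2 genes held 6 tested bins with no call by edgeR and none at an unadjusted p under 0.05. U2AF65A of the same list, which the reference writes ATU2AF65A and which was therefore not matched, held 2 tested bins without a call, at an unadjusted p of 0.00519 (-0.33 ± 0.11) and 0.0673 (0.38 ± 0.19). The RNA-binding protein gene GRP8 (AT4G39260, CCR1 in the reference), which is under clock control, rose by 0.88 ± 0.06 while its most used bin stood at 29.6% ± 0.954 in the dark and 30.1% ± 0.00635 in light (SD, n = 3). The SR protein kinase gene AFC1 (AT3G53570) held the other 2, one of them at -0.09 ± 0.28 and the groups overlapping. Of the clock genes only LNK2 (AT3G54500), a light-induced coactivator, had members. Its bin of 3 bases took 3.17%, 3.23% and 3.23% in the dark and 2.80%, 2.11% and 2.89% in light, apart but not called (-0.31 ± 0.26, adjusted p = 0.855), while the gene rose by 1.88 ± 0.08.

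Light signalling was represented by HYH (AT3G17609), the bZIP factor closest to HY5. None of its 3 bins was called. The middle one, of 42 bases, had usage of 15.6%, 18.6% and 18.9% in the dark and 18.01%, 21.4% and 19.1% in light, with overlap, but its junction inclusion went from 43.5%, 50.8% and 50.0% to 58.0%, 62.6% and 54.9%, without overlap. Photosynthesis and carbon fixation had 4 genes with 11 tested bins. The calls were the bin pair of RCA and the 88-base bin of GOX1, 2 higher and 1 lower. In LHCA1, an antenna gene of photosystem I, and CA2, a carbonic anhydrase gene, all 5 bins stood between 0.01 and 0.05 with no call.

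Just outside the threshold lay the 9-base bin of BGLU11 (-1.35 ± 0.34, adjusted p = 0.0511), called without dark library A (0.0297), and the bin of 16 bases in PGLP1 (AT5G36700), a photorespiratory phosphatase. The latter had the same counts as a bin of AT5G36790 in every library, so the 2 loci cannot be told apart. Its usage went from 2.93%, 3.20% and 3.04% to 3.71%, 4.07% and 3.87%, apart but not called (0.35 ± 0.09, adjusted p = 0.0594). HOG1 (AT4G13940), the main S-adenosylhomocysteine hydrolase gene, followed with a deep bin of 64 bases that went from 9.45%, 9.58% and 9.51% to 8.40%, 8.34% and 8.97%. Its change was small (-0.15 ± 0.04, adjusted p = 0.0609), and it was called without light library C (0.0262).

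Larger changes without a call rested on fewer counts. The trihelix factor gene GT-1, whose product binds light-responsive promoters, held a bin of 238 bases that went from 5.04%, 4.03% and 3.68% to 7.78%, 7.14% and 7.69% (0.80 ± 0.26, adjusted p = 0.210). A bin of AT3G45050 (0.66 ± 0.23, adjusted p = 0.260) and one of AT3G63445, which overlaps another locus (0.81 ± 0.27, adjusted p = 0.213), also stood higher. The dark-induced gene SEN1 fell by 3.35 on the log2 scale, and its bin of 76 bases had 41, 46 and 33 counts in the dark and 0, 3 and 1 in light. The usage change of this bin was -1.30 ± 0.59 (adjusted p = 0.513), and a bin of AT3G15450 stood at -1.14 ± 0.48 (adjusted p = 0.531) on 1 or 2 counts in each light library. Both bins passed the filter on low counts only through their dark libraries.

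The bins with the largest share of their gene in the dark were those of AT1G22140, PAI1 and AT2G20830. In AT1G22140 the bin took 60.5%, 56.1% and 62.6% in the dark and 50.8%, 52.6% and 58.0% in light. The groups overlapped (-0.16 ± 0.10, adjusted p = 0.765), and all junction reads entered the bin in both.

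Genes with the most such bins showed no call. The nuclear poly(A) polymerase gene nPAP (AT4G32850) held 9, of which 8 were tested, and these stood between -0.22 and 0.49 with adjusted p of 0.661 or more, while the gene fell by 0.83 (± 0.08). AT3G10915 held 9 with 3 tested, between -0.11 and 0.16. In the glycine-rich protein gene GRP9 (AT2G05440) all 8 bins, of 9 to 39 bases, were tested and stood between -0.19 and 0.01 (adjusted p of 0.904 or more), with the gene lower by 0.26 (± 0.09, adjusted p = 0.0202).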

How the data were processed

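The authors deposited whole-number counts for genes, exon parts, alternatively spliced bins, introns and splice junctions, 1 column per library, and the counts of genes, bins, exons and junctions were used. The submitters' processing notes name TopHat2 2.0.9, the build TAIR10 and R 3.1. No source used here names the counting program or says whether strand was used, so a bin under an overlapping gene can hold that gene's reads (15 members overlap another locus by coordinates). Per the labels, libraries were made from 3 µg of total RNA with 12 cycles of PCR. Positions are those of the authors' tables.

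Bins and junctions were tested with edgeR 4.0.16 (R 4.3.3) by the quasi-likelihood F test after filterByExpr, with log(gene count + 0.5) of the same library as offset, and genes with TMM normalization. Adjustment (Benjamini-Hochberg) ran over the whole table of each kind, and calls needed an adjusted p under 0.05. Changes are log2, light relative to dark, with their SE (n = 3 libraries per group). A junction enters a bin where its end is the bin's first or last base and leaves it out where it spans it whole. Gene symbols came from RefSeq (TAIR10.1), where all 444 genes matched. Of the gene lists, 20 of 20 SR genes, 22 of 28 other splicing regulators, 25 of 26 clock genes, 31 of 32 light signalling genes and 25 of 25 photosynthesis genes matched a symbol. Named bins are all those called, the 4 nearest above the threshold, the 3 highest and 3 lowest of the others whose groups did not overlap and whose higher group had a mean of 20 counts, the bins of the 3 genes with most of them, the 3 most used in the dark and up to 4 for each list. GRP-3, ATU2AF65A, NAC082, AT2G43160, AT2G16940, AT4G35785, LHCA1 and CA2 were named after their values were seen. The members and lists were chosen with earlier results of these data known. Alternatives were DESeq2 1.42.0, other filters, another denominator, single libraries left out, a block by column letter and loci left out. The methods were tested on simulated data.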

Additional observations from a re-analysis of the deposited data

How the results depend on the processing

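Against 16 bins called, DESeq2 called 4 and the fit without the 2 libraries richest in rRNA called 6, of which 4 and 4 were among the 16. Leaving out single libraries gave 7 to 14. No filter gave 23, with all 16 among them, and a mean of at least 20 counts gave 16. Leaving out bins that overlap another locus or share all counts with a copy, an alternative chosen after seeing the data, gave 15. DESeq2 ended 12 calls (adjusted p = 0.0648 to 0.576) and leaving out the rRNA-rich pair 12 (0.0565 to 0.25), which leaves 2 libraries a group; the cause was not tested. Border junctions called were 18 without a filter against 6, and 5 to 9 without single libraries. Called genes numbered 251 to 266 without single libraries and 285 with library totals alone, against 263.

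The median log2 change without single libraries was -0.0523 to 0.0349 in bins of 1 to 20 bases, -0.125 to -0.0841 in those over 300 bases (-0.0127 with a mean of at least 20 counts), -0.0840 to -0.0163 in genes with 3 bins and -0.0542 to 0.0123 in genes with 4 or more. It was -0.0157 to 0.0174 in genes with 2 bins and -0.0426 to 0.00956 in bins of over 100 to 300 bases. The sign of the median thus depends on the library left out in these last 2 classes, in the narrowest bins and in genes with 4 or more. Inclusion in the 26-base bin of AT1G61150 differed by 45.0 points with both borders and by 26.3 with the left border alone. No called bin changed sign in any alternative run. Of the named bins without a call, 2 of GRP8 went to -0.07 without dark library A, 1 of AFC1 to 0.14 and 1 of HYH to -0.01.

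With the column letter as a replicate block, 14 bins were called, 13 of them shared, and the calls in FUS5, delta-ADR and DYL1 were lost. Deviations of libraries with the same letter correlated at -0.07, 0.12 and -0.04, and those with different letters at -0.09 to 0.13. With 3 libraries in each group these values cannot decide whether the letters pair the libraries. Depth was limited: the median tested bin had 31.7 counts a library.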
